A study of Homo sapiens with 6 samples.

Results

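The transcripts of 56 human enzymes that modify transfer RNA, METTL1 itself left out, were followed in U-937 cells that received a guide RNA against METTL1. The members were the rows of the deposited table whose name equals a listed symbol; all 56 were found among 26810 gene rows. All 56 passed the filter on low values (1 or more in any 3 of the 6 libraries), and none needed its sgMETTL1.3 values for that, since all 3 sgNS values were 1 or more in each. U-937 is a human acute myeloid leukemia (AML) line, and the labels give a KMT2A-MLLT10 fusion for all 6 libraries. The sgMETTL1.3 group (3 libraries) carried a lentiviral guide against METTL1 in a Cas9-expressing population grown from 1 clone, and the sgNS group (3 libraries) carried the control guide in the same clone. Both groups were selected with blasticidin at 10 µg/ml and hygromycin B at 200 µg/ml, and were harvested at about day 8 to 10 after transduction. With a single METTL1 guide and no rescue, loss of METTL1 and other actions of that guide cannot be told apart. The labels do not say whether replicates were separate cultures, and the p-values therefore reflect library-to-library spread that may be technical.

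Transfer RNA carries more chemical modifications than any other RNA class in a cell. Methyl groups, pseudouridines and dihydrouridines in the body of the molecule help it to fold and to resist decay, while modifications at the wobble base of the anticodon and at the base beside the anticodon set how codons are read. METTL1, with WDR4, places N7-methylguanosine in the variable loop, and each of the members described here places, completes or removes another mark, in the cytosol, in mitochondria or in both.

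Values were TPM, a length-normalised share of all transcripts, which the authors had multiplied by a factor in each library that brings ERCC spike-ins, synthetic RNAs added to each sample, to the same sum. They are called levels on the spike-in scale here, and the depth of sequencing is unknown. Dividing that factor out again gives the values as TPM, and each comparison is given on both scales. The factors were 1.025, 0.832 and 0.9491 in sgMETTL1.3, against 1.129, 1.227 and 1.207 in sgNS. Fold changes are log2(value + 1) in sgMETTL1.3 minus that in sgNS, which understates the change of low genes. Over all 12449 tested genes they had a median of -0.32 on the spike-in scale and 0.01 as TPM. If the spike-ins were added by cell number, less RNA per cell and a smaller share of cells with the transcript cannot be told apart on the spike-in scale. If they were added to a fixed amount of RNA, that scale does not give RNA per cell. Each library had an input of 300 ng. METTL1, the targeted gene, had levels of 8.28, 5.94 and 7.42 in sgMETTL1.3, against 19.7, 22.0 and 20.3 in sgNS, so the groups did not overlap, and it fell (log2 fold change -1.41, SE 0.131, limma adjusted p = 2.41e-06; -1.08 as TPM). Of its 2621 exon bases, 613 are shared with other genes, CYP27B1 and EEF1AKMT3 among them. WDR4, the partner subunit, had levels of 14.9, 8.68 and 10.7 in sgMETTL1.3, against 28.1, 24.9 and 25.6 in sgNS, and fell as well (-1.16, limma adjusted p = 0.000178; -0.82 as TPM). Of 12 myeloid markers, 11 reached a level of 1, with MPO below it, and the markers summed to between 1730 and 2310 in sgMETTL1.3 and between 2580 and 2760 in sgNS. KRT18, KRT19, HBB, HBA1, PF4, MS4A1, CD3D and COL1A2 were listed at 0 in every library. Of the lists for other cell types, the T and natural killer cell list summed to between 161 and 244 in sgMETTL1.3 and between 306 and 341 in sgNS, with CD2 and NKG7 reaching a level of 1; the part of these in the results was not tested. The library sgMETTL1.3 replicate 1 stood apart: its difference from the other 2 libraries of its group followed transcript GC content across 12049 genes (Spearman 0.836, a description, since genes are not independent).

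Most transcripts of tRNA modification enzymes were lower in the cells with the METTL1 guide. On the spike-in scale 49 of the 56 members fell, 0 rose and 7 missed the threshold (limma adjusted p under 0.05 over all tested genes), where 49.3% of all tested genes were called lower and 6.4% higher. As TPM, 31 members fell, 2 rose and 23 did not pass, where 25.3% of all tested genes were called lower and 24.8% higher. All 31 were among the 49, and no member was called in opposite directions on the 2 scales. The median log2 fold change of the members was -0.67 on the spike-in scale, which is -0.35 relative to the median of all tested genes, and -0.32 as TPM, which is -0.34 relative to that median. On each scale 48 of the 56 members lay below the median of all tested genes. The members' values ran from -1.43 for PUS7 to 0.30 for ADAT3, with quartiles of -0.78 and -0.49, against -0.62 and -0.02 for all tested genes.

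**Figure D1:**
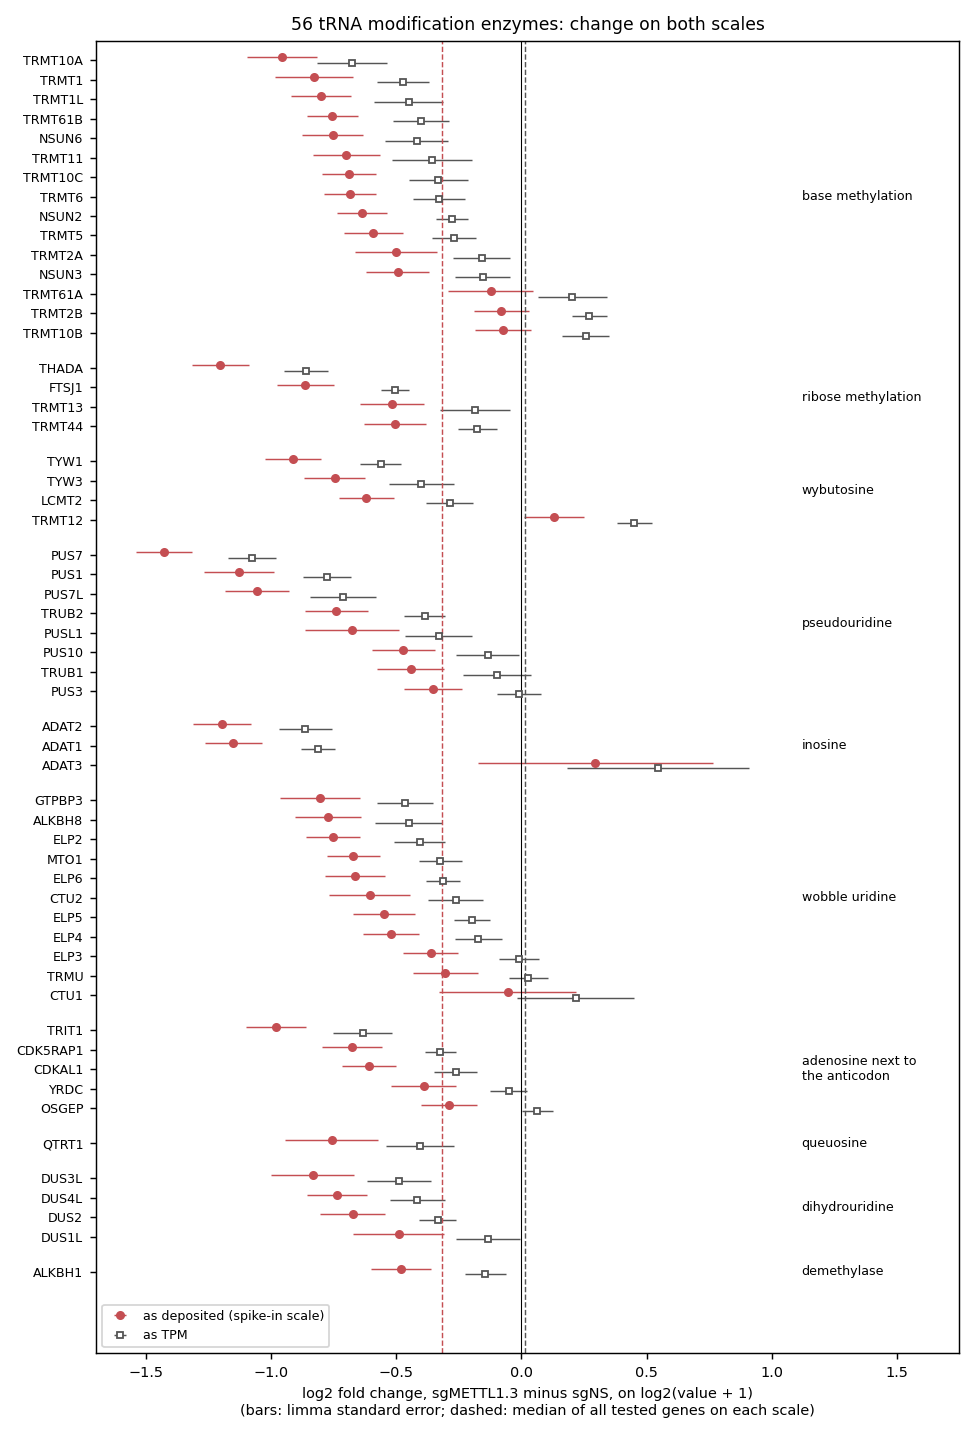
Log2 fold change (sgMETTL1.3 minus sgNS, on log2(value + 1)) of each of the 56 members on the spike-in scale (filled circles) and as TPM (open squares), grouped by modification; bars are limma standard errors and dashed lines the median of all tested genes on each scale (-0.32 and 0.01). PUS7, THADA, ADAT2, ADAT1, PUS1 and PUS7L lie at or below -1 on the spike-in scale, and TRMT12 and TRMT2B, both above 0 as TPM, are the 2 called higher there.

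The 56 transcripts summed to 1229, 1261 and 1282 TPM in the sgMETTL1.3 libraries, against 1587, 1576 and 1576 TPM in the sgNS libraries. The 2 groups did not overlap, and the spread within each was small beside the gap between them. On the spike-in scale the sums were 1213, 1001 and 1167 in the sgMETTL1.3 libraries, against 1731, 1873 and 1842 in the sgNS libraries, again without overlap. Member by member, every sgMETTL1.3 library lay below every sgNS library for 49 of 56 members, where 53.4% of all tested genes showed the same; as TPM this held for 36 members, where 32.1% of all tested genes did. These 49 were not quite the 49 called lower: TRMT2A fell although its groups overlapped, and TRMU did not pass the test although its groups did not overlap. As TPM, 3 members, TRMT2B, TRMT10B and TRMT12, had every sgMETTL1.3 library above every sgNS library.

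**Figure D2:**
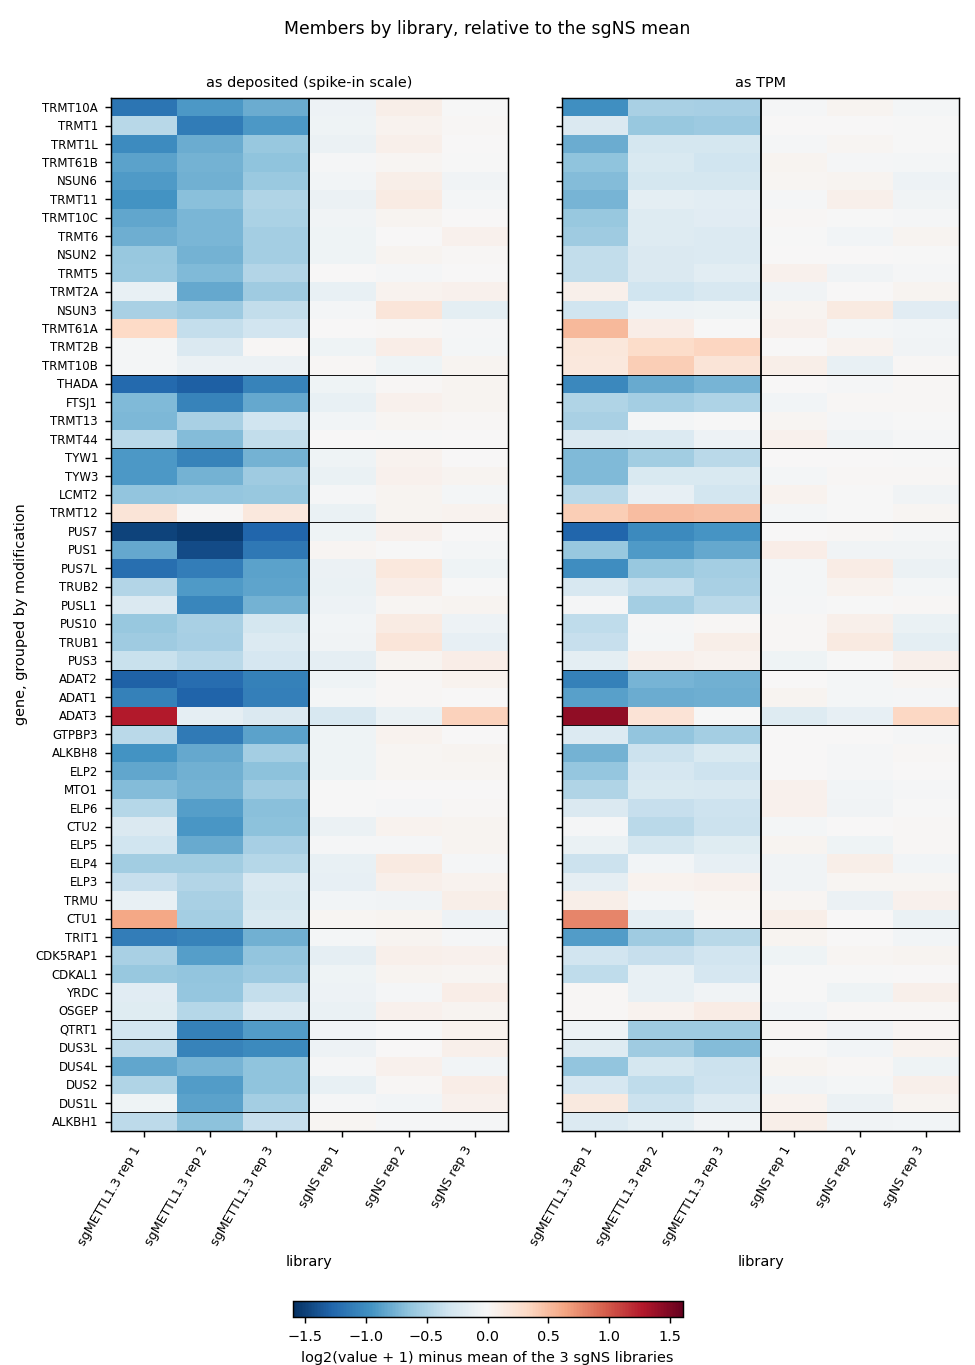
Level of each member in each library as log2(value + 1) minus the mean of the 3 sgNS libraries, on the spike-in scale (left) and as TPM (right), with sgMETTL1.3 libraries left of sgNS libraries and lines between modification groups. Blue fills most of the sgMETTL1.3 columns on the left. In many rows sgMETTL1.3 replicate 1 differs from replicates 2 and 3, ADAT3 and CTU1 most of all.

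Pseudouridine synthases, which turn uridine into its carbon-linked isomer, held the member with the lowest log2 fold change. All 8 fell on the spike-in scale (median -0.71), and 4 of them, PUS7, PUS1, PUS7L and TRUB2, also fell as TPM. PUS7, which modifies tRNA and also mRNA (chromosome 7, 105439661 to 105522267, minus strand, GRCh38), had levels of 16.2, 15.7 and 19.1 in sgMETTL1.3, against 44.9, 49.7 and 47.3 in sgNS. Its sgMETTL1.3 mean was 64% below the sgNS mean, and the groups were far apart relative to their spread (log2 fold change -1.43, SE 0.112, limma adjusted p = 7.22e-07; -1.08 as TPM, limma adjusted p = 0.000229). PUS1, which acts in the nucleus and in mitochondria, had levels of 34.3, 22.1 and 27.1 in sgMETTL1.3, against 62.4, 61.1 and 60.1 in sgNS (-1.13; -0.78 as TPM), with sgMETTL1.3 replicate 1 the highest of its group. PUS7L, the paralogue of PUS7, had levels of 10.4, 11.2 and 13.5 in sgMETTL1.3, against 23.5, 28.5 and 24.1 in sgNS (-1.06; -0.71 as TPM), and here the same library was the lowest of its group. TRUB2, a mitochondrial synthase, had levels of 32.6, 23.9 and 25.1 in sgMETTL1.3, against 42.4, 49.3 and 45.5 in sgNS (-0.74; -0.39 as TPM). The other 4 fell on the spike-in scale only, by 0.68 for PUSL1, a second mitochondrial member, 0.47 for PUS10, 0.44 for TRUB1 and 0.35 for PUS3 on the log2 scale. As TPM these 4 did not pass, with log2 fold changes of -0.33, -0.13, -0.10 and -0.01, and PUS10, TRUB1 and PUS3 were above 0 as TPM without sgMETTL1.3 replicate 1. The call of PUSL1 ended without sgMETTL1.3 replicate 3, that of TRUB1 without sgNS replicate 2 and that of PUS3 without sgNS replicate 2 or 3.

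**Figure D3:**
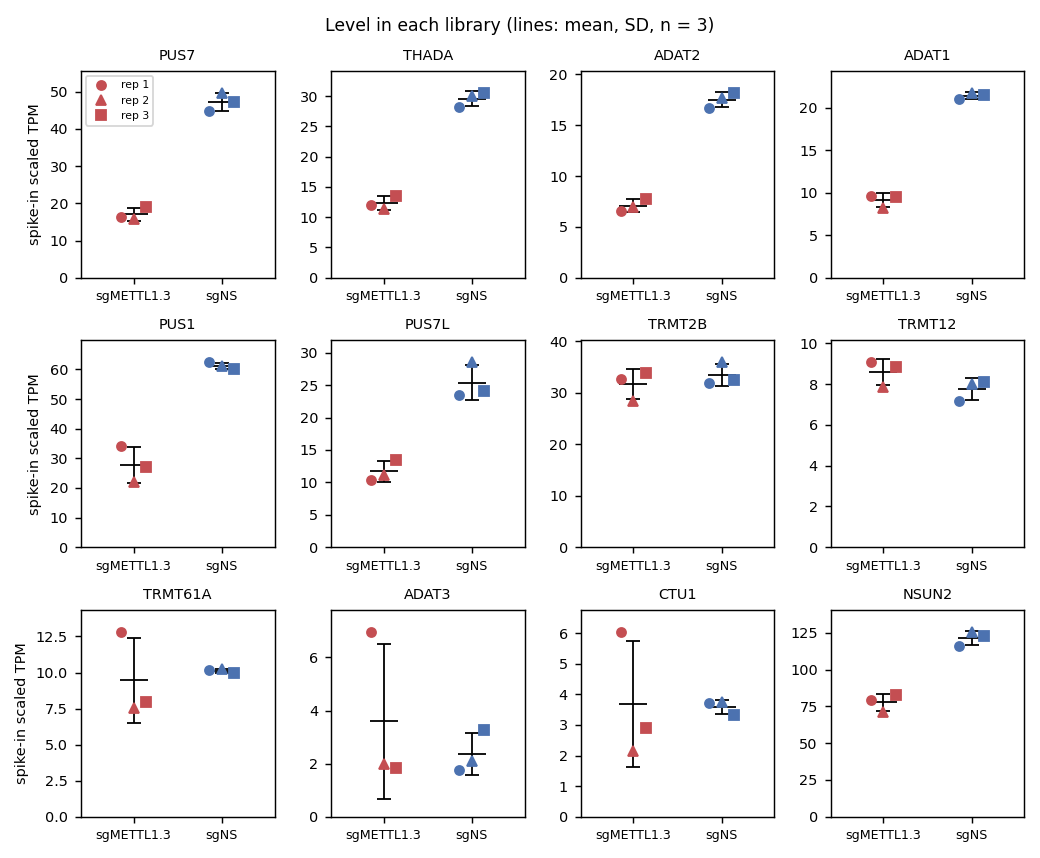
Level on the spike-in scale of 12 members in each library (symbols mark the replicate; lines are the mean and SD of 3 libraries, vertical axes start at 0), with sgMETTL1.3 left of sgNS. PUS7, THADA, ADAT2, ADAT1, PUS1, PUS7L and NSUN2 show separate groups, TRMT2B, TRMT12, TRMT61A, ADAT3 and CTU1 overlapping ones, and in TRMT61A, ADAT3 and CTU1 sgMETTL1.3 replicate 1 is the highest library.

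Of the 3 adenosine deaminases that make inosine, 2 fell on both scales. ADAT2, the catalytic subunit of the enzyme that edits the wobble adenosine (chromosome 6, 143422832 to 143450673, minus strand, GRCh38), had levels of 6.57, 6.93 and 7.76 in sgMETTL1.3, against 16.7, 17.7 and 18.2 in sgNS. The sgMETTL1.3 mean was 59.5% below the sgNS mean (log2 fold change -1.20, SE 0.117, limma adjusted p = 3.4e-06; -0.86 as TPM). ADAT1, which edits the adenosine beside the anticodon of alanine tRNA, had levels of 9.65, 8.20 and 9.53 in sgMETTL1.3, against 21.0, 21.8 and 21.5 in sgNS (-1.15, limma adjusted p = 3.86e-06; -0.81 as TPM). Neither gene's groups overlapped. ADAT3, the partner subunit of ADAT2, had the lowest sgNS mean of all members and levels of 6.96, 1.99 and 1.82 in sgMETTL1.3, against 1.76, 2.09 and 3.26 in sgNS. It did not pass the test (0.30, SE 0.469, limma adjusted p = 0.632), and its high value came from sgMETTL1.3 replicate 1 alone: without that library the log2 fold change was -0.19, again without a call. In GENCODE release 29, 792 of its 2237 exon bases are shared with SCAMP4 on the same strand, so reads there could be assigned to either gene.

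Ribose methyltransferases methylate the sugar rather than the base. THADA, which stands here as a relative of a partner protein, is counted with them throughout. All 4 members of this group fell on the spike-in scale (median -0.69), and 2 fell as TPM. THADA (chromosome 2, 43230836 to 43596046, minus strand, GRCh38), whose yeast relative is a partner of the yeast FTSJ1 enzyme at the anticodon loop, had levels of 11.9, 11.4 and 13.6 in sgMETTL1.3, against 28.1, 30.0 and 30.5 in sgNS. It had the lowest log2 fold change of the members after PUS7 (-1.20, SE 0.113, limma adjusted p = 2.54e-06; -0.86 as TPM, limma adjusted p = 0.0004). FTSJ1, the methyltransferase of that pair and a gene of X-linked intellectual disability, had levels of 56.7, 43.9 and 52.2 in sgMETTL1.3, against 85.8, 97.5 and 96.2 in sgNS (-0.86; -0.51 as TPM). TRMT13, which methylates the acceptor stem, had levels of 7.35, 8.58 and 10.1 in sgMETTL1.3, against 12.4, 13.0 and 12.9 in sgNS, and fell on the spike-in scale only (-0.52; -0.19 as TPM). TRMT44, a relative of a yeast uridine ribose methyltransferase, had levels of 8.38, 6.76 and 8.63 in sgMETTL1.3, against 11.6, 11.5 and 11.7 in sgNS (-0.50; -0.18 as TPM without a call). Of the exon bases of TRMT13, 543 of 4133 are shared with other genes, and whether the authors counted by strand is not given in the sources used here. Further members share exon bases too, among them YRDC (509 of 1826), TRMT61B (471 of 2056) and DUS2 (678 of 4472).

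Of the 15 base methyltransferases, 12 fell on the spike-in scale and 3 did not pass (median -0.69); as TPM 8 fell and 1, TRMT2B, rose. TRMT61B, which makes methyladenosine in mitochondrial tRNA, had levels of 28.1, 30.2 and 32.8 in sgMETTL1.3, against 51.0, 52.8 and 51.7 in sgNS (log2 fold change -0.76, limma adjusted p = 4.34e-05; -0.40 as TPM). TRMT10A, a guanosine methyltransferase, had levels of 1.68, 2.18 and 2.47 in sgMETTL1.3, against 4.67, 5.40 and 4.96 in sgNS (-0.96; -0.68 as TPM), the lowest log2 fold change of this group at a low level, where the scale of log2(value + 1) understates the change. TRMT1L, a paralogue of the dimethylguanosine enzyme TRMT1, had levels of 20.5, 23.7 and 27.2 in sgMETTL1.3, against 39.4, 44.3 and 42.3 in sgNS (-0.80; -0.45 as TPM). The groups did not overlap in any of these 3 genes, and in each of them sgMETTL1.3 replicate 1 was the lowest of its group. TRMT1 itself averaged 40.5 ± 10.2 in sgMETTL1.3 and 71.3 ± 3.31 in sgNS (SD, n = 3 each) and fell on both scales (-0.83; -0.47 as TPM), with 51.9 in sgMETTL1.3 replicate 1 the highest of its group.

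NSUN2, which makes methylcytosine in many tRNAs, was the most abundant member, with levels of 79.5, 71.4 and 82.7 in sgMETTL1.3, against 116, 126 and 123 in sgNS. It fell on both scales (-0.64, limma adjusted p = 0.000137; -0.28 as TPM), and so did NSUN6 (-0.75; -0.42), a second cytosine methyltransferase, and TRMT5 (-0.59; -0.27), which methylates the guanosine beside the anticodon. TRMT10C, a mitochondrial methyltransferase and the first subunit of mitochondrial RNase P, had levels of 46.8, 50.1 and 58.8 in sgMETTL1.3, against 80.6, 86.8 and 84.3 in sgNS. It fell on the spike-in scale (-0.69, limma adjusted p = 0.000142), and as TPM its -0.33 missed the threshold (limma adjusted p = 0.051). TRMT11, a guanosine methyltransferase, NSUN3, a mitochondrial cytosine methyltransferase, and TRMT2A, which makes methyluridine in the T loop, fell on the spike-in scale only (-0.70, -0.49 and -0.50), TRMT2A losing its call without sgMETTL1.3 replicate 2 or 3 or sgNS replicate 2. TRMT2B, the mitochondrial relative of TRMT2A, averaged 31.6 ± 2.89 in sgMETTL1.3 and 33.5 ± 2.15 in sgNS (SD, n = 3 each), did not pass on that scale (-0.08) and rose as TPM (0.27, limma adjusted p = 0.0167). TRMT10B, a paralogue of TRMT10A, averaged 9.98 ± 0.284 in sgMETTL1.3 and 10.6 ± 0.491 in sgNS (SD, n = 3 each) and passed on neither scale (-0.07; 0.26 as TPM, limma adjusted p = 0.0553), although it rose as TPM without sgMETTL1.3 replicate 1 (0.30).

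Wybutosine, a bulky base found only beside the anticodon of phenylalanine tRNA, is built in steps, and 3 of the 4 genes for its later steps fell on both scales while the other did not. TYW1, which forms the ring, had levels of 22.4, 20.1 and 25.2 in sgMETTL1.3, against 41.3, 44.8 and 43.6 in sgNS (-0.91, limma adjusted p = 1.95e-05; -0.56 as TPM). TYW3 had levels of 14.3, 16.2 and 18.5 in sgMETTL1.3, against 25.8, 29.3 and 28.7 in sgNS (-0.75; -0.40), and LCMT2, which completes the side chain, 8.70, 8.82 and 8.93 in sgMETTL1.3, against 13.9, 14.6 and 13.8 in sgNS (-0.62; -0.29). The groups of these 3 genes did not overlap. TRMT12, the transferase that acts between TYW1 and TYW3, had levels of 9.07, 7.89 and 8.83 in sgMETTL1.3, against 7.17, 8.03 and 8.11 in sgNS, which overlapped. It did not pass on the spike-in scale (0.13, limma adjusted p = 0.381) and rose as TPM (0.45, limma adjusted p = 0.00215), where every sgMETTL1.3 library lay above every sgNS library. TYW1 has a close copy, TYW1B, whose reads could be exchanged with it; TYW1B averaged 3.56 ± 0.472 in sgMETTL1.3 and 3.43 ± 0.668 in sgNS (SD, n = 3 each).

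Wobble uridine enzymes had 9 of 11 members lower on the spike-in scale, none higher (median -0.61), and 5 lower as TPM. In the cytosol, Elongator and ALKBH8 build a carboxymethyl side chain and CTU1 with CTU2 adds sulfur; in mitochondria MTO1 and GTPBP3 add a taurine group and TRMU adds sulfur. ELP2, the scaffold subunit of Elongator, had levels of 16.2, 16.9 and 18.4 in sgMETTL1.3, against 28.1, 30.3 and 30.3 in sgNS (-0.75, limma adjusted p = 6.53e-05; -0.41 as TPM). ELP6 had levels of 31.9, 23.4 and 27.4 in sgMETTL1.3, against 43.7, 43.5 and 44.6 in sgNS (-0.66; -0.31 as TPM), and ELP4, its neighbour in the accessory subcomplex, 20.2, 20.1 and 21.7 in sgMETTL1.3, against 27.6, 33.2 and 29.8 in sgNS (-0.52). ELP2 and ELP6 fell on both scales, while ELP4, ELP5 (-0.55) and ELP3, the catalytic subunit (-0.36), fell on the spike-in scale only. As TPM, the value of ELP3 was -0.01, without a call, and its call on the spike-in scale ended without sgNS replicate 2 or 3. ELP4 shares 5347 of 27306 exon bases with other genes, mostly PAX6 on the opposite strand.

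ALKBH8, which methylates the carboxymethyl chain, had levels of 4.92, 5.52 and 6.82 in sgMETTL1.3, against 9.93, 10.7 and 10.8 in sgNS and fell on both scales (-0.77, limma adjusted p = 0.000272; -0.45 as TPM). The mitochondrial pair fell on both scales too: MTO1 had levels of 16.8, 16.1 and 18.4 in sgMETTL1.3, against 27.6, 27.9 and 27.8 in sgNS (-0.67; -0.32 as TPM). GTPBP3 had levels of 16.7, 9.88 and 12.1 in sgMETTL1.3, against 21.7, 23.7 and 22.9 in sgNS (-0.80; -0.46 as TPM), with no overlap between the groups in either gene. CTU2 had levels of 19.3, 11.5 and 14.1 in sgMETTL1.3, against 21.2, 23.7 and 23.6 in sgNS, and fell on the spike-in scale only (-0.61; -0.26 as TPM), a call that ended without sgMETTL1.3 replicate 3. CTU1, the catalytic subunit and among the 3 members with the lowest levels, had levels of 6.04, 2.16 and 2.88 in sgMETTL1.3, against 3.70, 3.75 and 3.33 in sgNS. It did not pass (-0.05, limma adjusted p = 0.883), and without sgMETTL1.3 replicate 1, its highest library, it was called lower on the spike-in scale (-0.39) but not as TPM. TRMU averaged 10.1 ± 1.53 in sgMETTL1.3 and 12.6 ± 0.79 in sgNS (SD, n = 3 each) and missed the threshold (-0.30, limma adjusted p = 0.0619; 0.03 as TPM), and it too was called lower without that library (-0.40).

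The adenosine beside the anticodon carries an isopentenyl or a threonylcarbamoyl group, to which a methylthio group can be added. All 5 members of this group fell on the spike-in scale (median -0.61), and 3 fell as TPM. TRIT1, the isopentenyltransferase, had levels of 13.1, 13.4 and 16.7 in sgMETTL1.3, against 28.5, 30.2 and 28.8 in sgNS (-0.98, limma adjusted p = 1.86e-05; -0.64 as TPM). CDKAL1, the methylthiotransferase of cytosolic lysine tRNA, had levels of 16.6, 16.4 and 16.9 in sgMETTL1.3, against 24.6, 26.8 and 26.4 in sgNS (-0.61; -0.26 as TPM), and its 3 sgMETTL1.3 values lay close together. CDK5RAP1, the mitochondrial counterpart, had levels of 37.4, 28.98 and 34.8 in sgMETTL1.3, against 49.0, 57.4 and 56.8 in sgNS (-0.68; -0.32 as TPM). YRDC, which makes the activated group, had levels of 15.4, 11.1 and 13.3 in sgMETTL1.3, against 16.5, 17.3 and 18.9 in sgNS (-0.39; -0.05 as TPM without a call), and OSGEP, which transfers it, averaged 35.5 ± 3.61 in sgMETTL1.3 and 43.5 ± 2.92 in sgNS (SD, n = 3 each) (-0.29, limma adjusted p = 0.041; 0.06 as TPM without a call). Leaving out any of sgMETTL1.3 replicates 2 and 3 or sgNS replicates 2 and 3 ended the calls of both genes, and 3 of the 5 members then fell.

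The 4 dihydrouridine synthases, which reduce uridines in tRNA, all fell on the spike-in scale (median -0.71), and DUS2, DUS3L and DUS4L also fell as TPM. DUS3L had levels of 20.7, 12.8 and 13.3 in sgMETTL1.3, against 26.4, 28.0 and 29.5 in sgNS (-0.83, limma adjusted p = 0.00159; -0.49 as TPM). DUS4L had levels of 5.34, 5.72 and 6.25 in sgMETTL1.3, against 10.1, 10.8 and 9.91 in sgNS (-0.74; -0.42), and 557 of its 5439 exon bases are shared with COG5 on the opposite strand. DUS2 had levels of 13.7, 10.0 and 12.1 in sgMETTL1.3, against 17.8, 19.7 and 21.1 in sgNS (-0.67; -0.34). These 3 genes did not overlap between the groups. DUS1L, the most abundant of the 4, had levels of 74.4, 42.3 and 52.9 in sgMETTL1.3, against 76.8, 75.1 and 81.3 in sgNS, so that sgMETTL1.3 replicate 1 lay just under the lowest sgNS library (-0.49, limma adjusted p = 0.0462; -0.13 as TPM without a call). The call of DUS1L ended when sgMETTL1.3 replicate 2 or 3, or sgNS replicate 1 or 2, was left out.

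QTRT1, the catalytic subunit of the enzyme that exchanges guanine for queuine at the wobble position, had levels of 40.6, 23.0 and 26.5 in sgMETTL1.3, against 48.5, 49.7 and 51.9 in sgNS. It fell on both scales (-0.76, limma adjusted p = 0.00748; -0.41 as TPM, limma adjusted p = 0.0419), with sgMETTL1.3 replicate 1 well above the other 2 libraries of its group. ALKBH1, which removes methyl groups from adenosine and oxidises a methylcytosine in mitochondria, had levels of 11.5, 9.66 and 11.98 in sgMETTL1.3, against 16.1, 15.6 and 15.6 in sgNS, and fell on the spike-in scale only (-0.48; -0.14 as TPM). Of the 10 members that act mainly in mitochondria, 8 fell on the spike-in scale (median -0.68), as did 41 of the other 46 (median -0.65). As TPM, 5 of the 10 fell and 1 rose, and 26 of the 46 fell and 1 rose.

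Transcript GC content went with the behaviour of sgMETTL1.3 replicate 1 among the members, too. Over the 56 members its difference from replicates 2 and 3 followed GC content (Spearman 0.951, over genes of 1 library, a description). It was the highest library of its group for 24 of the 28 members above the median GC content of 47.2%, and for 0 of the 28 others. The members above that GC content had a median log2 fold change of -0.61 with all libraries and -0.70 without sgMETTL1.3 replicate 1, and the others -0.72 and -0.66. Without this library 52 members fell, TRMT61A, TRMU and CTU1 being the 3 added, and TRMT2B, TRMT10B, TRMT12 and ADAT3 did not pass. Of all 12286 genes tested without it, 7538 were called lower. That fit pooled the spread of all genes, so its count is not directly comparable. As TPM without this library 38 members fell and 3 rose, where 4202 of 12236 tested genes were called lower and 4445 higher. The part that GC content played in the single results was not tested.

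**Figure D4:**
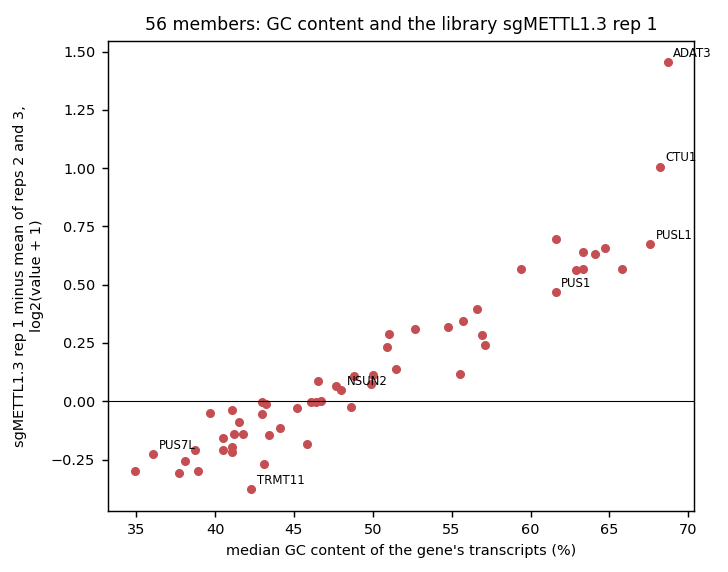
Median GC content of each member's transcripts (horizontal axis, %) against the level in sgMETTL1.3 replicate 1 minus the mean of replicates 2 and 3, on log2(value + 1) (vertical axis), 1 point per member. The points climb with GC content (Spearman 0.951), with ADAT3 and CTU1 highest.

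Ratios of 2 partner transcripts within a library hardly depend on the library's scaling, and 4 of 8 such ratios did not overlap between the groups. With 3 libraries against 3, the exact two-sided permutation test cannot go below p = 0.1, which each of these 4 reached (0.2 adjusted over the 8 pairs). The log2 ratio of ADAT2 to ADAT3 was -0.07, 1.41 and 1.63 in sgMETTL1.3, against 2.68, 2.60 and 2.17 in sgNS. That of TRMT6 to TRMT61A, the subunits of the cytosolic methyladenosine enzyme, was 1.64, 2.39 and 2.499 in sgMETTL1.3, against 2.66, 2.73 and 2.83 in sgNS. TRMT6 had levels of 42.2, 43.9 and 49.9 in sgMETTL1.3, against 69.5, 73.8 and 76.6 in sgNS and fell on both scales (-0.69; -0.33 as TPM), with no overlap. TRMT61A, the catalytic subunit, had levels of 12.8, 7.55 and 7.99 in sgMETTL1.3, against 10.2, 10.2 and 9.95 in sgNS and did not pass (-0.12), but was called lower on the spike-in scale without sgMETTL1.3 replicate 1, its highest library (-0.34). Both ratios were lower in every sgMETTL1.3 library than in any sgNS library. The ratio of CTU1 to CTU2, -1.53, -1.99 and -1.96 in sgMETTL1.3, against -2.24, -2.38 and -2.51 in sgNS, and that of FTSJ1 to THADA, 2.16, 1.86 and 1.87 in sgMETTL1.3, against 1.58, 1.67 and 1.62 in sgNS, were higher in sgMETTL1.3.

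Within each of these 4 pairs GC content differed, at 41.2% for ADAT2 and 68.7% for ADAT3, 43.4% for TRMT6 and 64.7% for TRMT61A, 68.2% for CTU1 and 62.9% for CTU2, and 57.1% for FTSJ1 and 43.0% for THADA. The differences (sgMETTL1.3 minus sgNS) were -1.49, -0.56, 0.55 and 0.34 with all libraries. Without sgMETTL1.3 replicate 1 they kept their signs and were nearer 0, at -0.96, -0.29, 0.40 and 0.24. The ratio of QTRT1 to QTRT2 overlapped between the groups (0.24, exact permutation p = 0.8 with n = 3 each). Without sgMETTL1.3 replicate 1 its difference was -0.03. Those of MTO1 to GTPBP3 (0.13, exact permutation p = 0.5), METTL1 to WDR4 (-0.25, exact permutation p = 0.3) and ELP4 to ELP6 (0.14, exact permutation p = 0.4) overlapped too. The ratio of MTO1 to GTPBP3 was 0.01, 0.65 and 0.56 in sgMETTL1.3, against 0.33, 0.225 and 0.27 in sgNS. That of ELP4 to ELP6 was -0.63, -0.21 and -0.32 in sgMETTL1.3, against -0.65, -0.38 and -0.57 in sgNS. In these 2 pairs the overlap came from sgMETTL1.3 replicate 1 alone. The pairs QTRT1 to QTRT2 and METTL1 to WDR4 overlapped without it too.

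**Figure D5:**
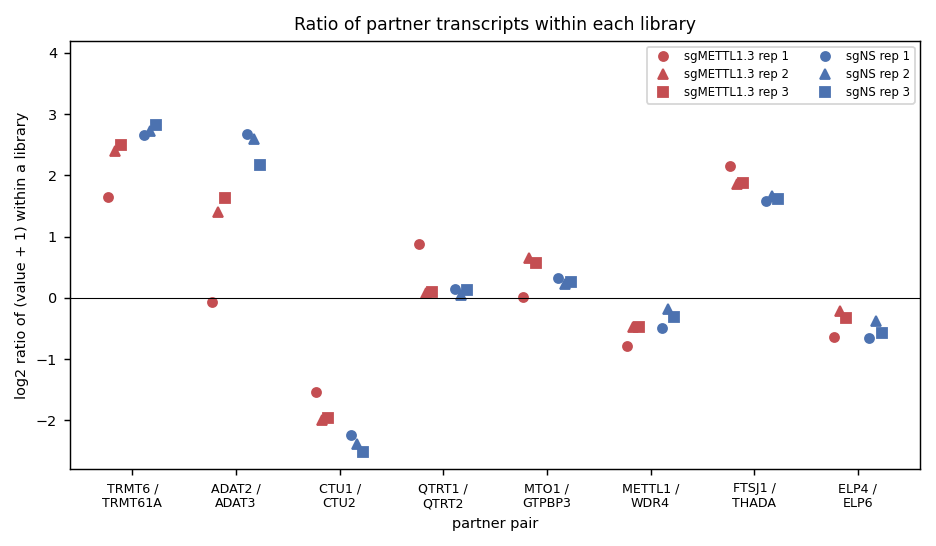
Log2 ratio of 2 partner transcripts within each library (vertical axis, on value + 1) for 8 pairs, sgMETTL1.3 libraries left of sgNS libraries within each pair and symbols marking the replicate. The ratios of TRMT6 to TRMT61A and of ADAT2 to ADAT3 lie lower in sgMETTL1.3, those of CTU1 to CTU2 and of FTSJ1 to THADA higher, and sgMETTL1.3 replicate 1 lies farthest from sgNS in each of these 4.

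The list of 39 other genes of tRNA modification, among them partners of the members, had 38 tested genes, of which 25 fell, none rose and 13 did not pass on the spike-in scale (median -0.55). As TPM 18 fell and 3 rose, namely TRMT112, the activator of several methyltransferases (0.24), HSD17B10 (0.27) and DTWD2 (0.30). The 4 with the smallest p fell on both scales. C9orf64, which salvages queuosine, had levels of 5.87, 6.11 and 6.55 in sgMETTL1.3, against 16.8, 19.4 and 17.2 in sgNS (-1.39, limma adjusted p = 1.28e-06; -1.06 as TPM). TARBP1, a ribose methyltransferase, had levels of 15.9, 15.0 and 18.1 in sgMETTL1.3, against 37.2, 39.5 and 38.0 in sgNS (-1.18; -0.83). THUMPD3, a guanosine methyltransferase that works with TRMT112, had levels of 27.9, 28.6 and 32.0 in sgMETTL1.3, against 61.5, 62.3 and 63.9 in sgNS (-1.06; -0.71). OSGEPL1, the mitochondrial relative of OSGEP, had levels of 10.1, 9.60 and 10.96 in sgMETTL1.3, against 21.3, 24.4 and 23.7 in sgNS (-1.11; -0.77), and none of the 4 overlapped between the groups.

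Subunits of the same complex were not all called alike. Mitochondrial RNase P, which trims tRNA precursors, is made of TRMT10C, HSD17B10 and KIAA0391. KIAA0391, the nuclease, fell on both scales (-0.87; -0.52 as TPM), with TRMT10C lower on the spike-in scale only, as given above, while HSD17B10 averaged 264 ± 38.4 in sgMETTL1.3 and 279.7 ± 18.9 in sgNS (SD, n = 3 each) and did not pass there (-0.09). KIAA0391 shares 3208 of 6982 exon bases with other genes, including a read-through locus. In the KEOPS complex, which carries out the threonylcarbamoyl transfer, the kinase subunit TP53RK fell on both scales (-0.68; -0.34), TPRKB (-0.55), C14orf142 (-0.35) and OSGEP fell on the spike-in scale only, and LAGE3, with levels of 75.5, 37.6 and 43.0 in sgMETTL1.3, against 46.3, 50.8 and 56.6 in sgNS, did not pass on either (-0.04; 0.32 as TPM). IKBKAP, the largest Elongator subunit, fell on both scales (-0.64; -0.28), as did QTRT2, the partner of QTRT1, with levels of 21.6, 21.8 and 24.8 in sgMETTL1.3, against 43.8, 47.9 and 47.2 in sgNS (-0.996; -0.64). Whether subunits of a complex differ in their change was tested for the 8 pairs above only.

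Promoter windows were read for the members, since most of them moved together. RefSeq (GRCh38.p14) gave windows of 300 bases, 250 before and 50 from a transcription start, for 46 of the 56. A gene could have several windows (60 in all) and was counted if any of them held the letters. The letters CACGTG, which read the same on both strands and form the E-box bound by MYC among other factors, occurred in 5 of these 46 genes (10.9%), against 12.7% of the tested genes with a window, so the share was near that of all of them. The letters CGGAAG, or CTTCCG on the other strand, the core bound by ETS factors, occurred in 26 of the 46 (56.5%), against 39.2% of the tested genes with a window and 22.6% of all genes with a window. Of the 5 genes with CACGTG, PUS7, QTRT1, TRUB2 and TRMT6 fell on both scales and TRMT61A on neither; of the 41 without it, 36 fell on the spike-in scale and 21 as TPM. The 3 of these with the lowest log2 fold changes are shown with CACGTG in capitals, each read 5′ to 3′ on the strand of its gene, PUS7 (chr7:105522222-105522521, minus strand), QTRT1 (chr19:10701189-10701488, plus strand, with 2 matches) and TRUB2 (chr9:128322169-128322468, minus strand). A match is a description of the letters and not a binding site. The TRUB2 window lies wholly inside the gene as placed by GENCODE (chromosome 9, 128305161 to 128322742, minus strand). Its start is thus not at the 5′ end of the gene there.
PUS7: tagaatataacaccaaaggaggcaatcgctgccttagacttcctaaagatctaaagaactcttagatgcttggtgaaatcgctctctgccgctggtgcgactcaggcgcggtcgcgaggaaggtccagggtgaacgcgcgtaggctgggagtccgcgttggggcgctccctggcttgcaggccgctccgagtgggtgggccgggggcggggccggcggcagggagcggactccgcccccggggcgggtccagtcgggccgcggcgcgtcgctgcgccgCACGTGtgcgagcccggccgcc
QTRT1: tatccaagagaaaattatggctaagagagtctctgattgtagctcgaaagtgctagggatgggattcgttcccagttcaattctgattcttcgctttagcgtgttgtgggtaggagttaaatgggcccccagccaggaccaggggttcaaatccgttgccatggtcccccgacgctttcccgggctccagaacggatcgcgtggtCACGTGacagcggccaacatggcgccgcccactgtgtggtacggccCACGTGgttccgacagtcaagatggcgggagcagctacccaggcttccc
TRUB2: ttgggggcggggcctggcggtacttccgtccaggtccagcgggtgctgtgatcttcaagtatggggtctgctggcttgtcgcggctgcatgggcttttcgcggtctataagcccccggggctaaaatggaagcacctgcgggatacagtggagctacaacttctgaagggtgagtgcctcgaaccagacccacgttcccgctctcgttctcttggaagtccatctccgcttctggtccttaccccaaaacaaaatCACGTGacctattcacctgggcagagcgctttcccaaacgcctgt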

How the data were processed

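The mRNA of 6 libraries with ERCC spike-ins was analysed from 1 deposited table. Per the submitters' processing notes, cutadapt, STAR and RSEM were run, with the builds GRCh38 and hg38; their versions, the annotation and any strand option are not given in the sources used. The deposited signal values are TPM in steps of 0.01 times a factor that brings the 92 spike-in rows to a sum of 38252, as the values themselves show: 99.91% or more of them per library were whole steps after division. The steps are rounding and not reads, so counting error cannot be given.

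Genes with 1 or more in any 3 libraries (12449) were tested with limma 3.58.1 under R 4.3.3 (trend, robust, no block) on log2 of the value plus 1, and p-values were Benjamini-Hochberg adjusted over all of them (threshold 0.05). For values as TPM, gene rows were rescaled to 1000000. GC content (median over a gene's transcripts) and positions came from GENCODE release 29 (GRCh38). The fit was tested on simulated data.

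The members and lists were chosen with earlier results of these data known. Values in each library are given for the up to 4 members with the smallest p in each modification group, partner pairs, the 3 highest and 3 lowest sgNS means, METTL1, WDR4 and the 4 lower other tRNA modification genes with the smallest p; the further subunits of complexes were chosen after their values were seen. Scaling, filter, pseudocount, trend, replicate block, GC correction and the leaving out of each library were varied. Same-numbered libraries did not deviate together (correlation over genes -0.0137, 0.00455 and -0.0385 for replicates 1, 2 and 3 on the spike-in scale). With sgMETTL1.3 replicate 1 standing apart from its group, this cannot exclude that the numbers pair the samples.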

Additional observations from a re-analysis of the deposited data

How the results depend on the processing

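Of the 49 members called lower, 28 kept that call in each of the 18 alternatives that tested them. How many of all tested genes did so was not counted, so the 28 cannot be set against a background share. PUS7, THADA, ADAT2, ADAT1, PUS1 and PUS7L were among the 28, and METTL1 and WDR4 kept their calls too. TRMT10A, also among the 28, lay below the filter on a mean of 5 and was not tested there. The replicate block, the GC correction on the spike-in scale and the fit without sgMETTL1.3 replicate 1 pooled the spread of all genes. As TPM, 31 members were lower and 2 higher with a median log2 fold change of -0.32, 3 other tRNA modification genes were higher, and 3147 genes were lower and 3093 higher in all; 1 base methyltransferase and 1 wybutosine gene were higher, and 2 ribose methyltransferases, 4 pseudouridine synthases, 5 wobble uridine enzymes, 3 genes of the adenosine beside the anticodon and 0 of 1 demethylases were lower. With median-ratio scaling 2 members and 3 other tRNA modification genes were higher (median of the members -0.36), 3603 genes were lower and 2869 higher in all, 1 base methyltransferase and 1 wybutosine gene were higher, and 4 pseudouridine synthases, 3 genes of the adenosine beside the anticodon and 0 demethylases were lower. As TPM without sgMETTL1.3 replicate 1, 3 members, 6 other tRNA modification genes and 4445 genes in all were higher (median of the members -0.26), among them 2 base methyltransferases and 1 wybutosine gene, and 2 ribose methyltransferases, 5 pseudouridine synthases, 3 genes of the adenosine beside the anticodon and 0 demethylases were lower. As TPM with GC correction, which was chosen after seeing the data, the members' median was -0.27, 3 members, 5 other tRNA modification genes and 3834 genes were higher, 16 other tRNA modification genes and 4047 genes were lower, 2 base methyltransferases and 1 wybutosine gene were higher, and 5 pseudouridine synthases, 2 genes of the adenosine beside the anticodon and 0 demethylases were lower. A pseudocount of 5 gave a median of -0.53 for the members, and a filter on a mean of 5 gave 510 higher genes in all.

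Signs of single log2 fold changes turned from below to above 0 in some members. As TPM and with median ratios these were TRMT2B (0.27 and 0.24), OSGEP (0.064 and 0.029), TRMT10B (0.26 and 0.22), CTU1 (0.22 and 0.19) and TRMT61A (0.20 and 0.17), and as TPM also TRMU (0.028). As TPM without sgMETTL1.3 replicate 1 they were TRMT2B (0.32), TRMT10B (0.30), OSGEP (0.087), PUS3 (0.063), ELP3 (0.061), TRMT61A (0.048), TRUB1 (0.034) and PUS10 (0.0005). As TPM with GC correction they were TRMT2B (0.27), TRMT10B (0.29), PUS3 (0.12), TRUB1 (0.058), ELP3 (0.047), OSGEP (0.038), PUS10 (0.027) and NSUN3 (0.0017). Of these members only TRMT2B and TRMT10B passed the test above 0 under any of these settings; the cause was not tested.

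Leaving out 1 library gave 42 to 52 members lower and 0 higher (median -0.70 to -0.58), 21 to 32 other tRNA modification genes lower, 4880 to 7538 genes lower and 534 to 1037 higher in all, and 3 to 5 genes of the adenosine beside the anticodon lower. Whether the numbers pair the samples is not known. With the replicate block 48 members were lower, OSGEP losing its call, and 5861 of 12449 tested genes were lower in all. That fit pooled the spread of all genes, so its count is not directly comparable. As TPM with the block 29 members were lower and 2 higher (median -0.32), 16 other tRNA modification genes were lower and 2 higher, 2953 genes were lower and 2932 higher in all, 1 base methyltransferase and 1 wybutosine gene were higher, and 2 ribose methyltransferases, 4 pseudouridine synthases, 5 wobble uridine enzymes, 2 genes of the adenosine beside the anticodon and 0 demethylases were lower; the signs were those as TPM without the block, with TRMT2B at 0.27 and OSGEP at 0.064. Depth is unknown, so how far it limits low members such as ADAT3 and CTU1 cannot be given.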
